A study of Mus musculus with 12 samples.

Results

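Germ cells of the mouse testis at postnatal day 7 (P7) were set against wild-type germline stem cells (GSC WT), a cell line of cultured spermatogonia. The comparison takes 4 of the 12 libraries of the series, 2 in each group, and was chosen by the sample titles and not by any measured value. The P7 libraries were labelled as testis germ cells of the genotype Vasa-RFPTg/0, a red fluorescent reporter transgene named after Vasa, the germ cell RNA helicase Ddx4. The GSC WT libraries were labelled with the line Acrosin-EGFP; beta-Actin-EGFP (AAG) and the genotype WT, so the cultured cells carry green fluorescent reporter transgenes that the P7 labels do not name. The other 8 libraries were 2 from each of 2 Stag3 KO lines of the same AAG background, and 2 each of testis germ cells at embryonic days 16 and 17 (E16 and E17) with the Vasa-RFPTg/0 genotype. They entered the fit so that all 12 libraries share an estimate of the spread. How the P7 cells were isolated, how many animals gave them, whether the line is a clone, and the medium, feeder cells and passage of the culture are not stated in the labels. The labels do not say that the libraries of a group came from separate animals or cultures, so p-values cover only the spread among libraries, and that spread may be technical. Tissue against culture, the reporter background and the strain cannot be told apart in this design.

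In the first postnatal week, fetal germ cells called prospermatogonia resume division and become spermatogonia. Undifferentiated spermatogonia, which include the stem cells, depend on GDNF from Sertoli cells, received by the receptors Gfra1 and Ret, and on FGF. Some advance to progenitors that express Neurog3, and retinoic acid then moves them to Kit-positive differentiating spermatogonia that express Stra8. Cultured germline stem cells are grown from spermatogonia in media that hold such growth factors.

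Total counts were 3230225 and 3394753 for P7 replicates 1 and 2, and 4159038 and 4596607 for GSC WT replicates 1 and 2. Levels are given as RPM (reads per 1000000) of the counts on nuclear genes, which were 3040988 and 3235274 at P7 and 3672867 and 4013033 in GSC WT. A gene with no count in a P7 library could have a level of up to 0.987 or 0.927 RPM (3 counts), and in a GSC WT library of up to 0.817 or 0.748 RPM, for counting error only. The P7 files use a list of 34896 genes and the files of the other 10 libraries a list of 35652 genes, so the gene list and the counting cannot be told apart from the P7 group, and 31675 genes were shared. Among tested genes, 22 had at least 20 RPM at P7 and under 1 RPM in each of the other 10 libraries. Of these 22, 18 overlap another annotated gene, while of all 15827 tested genes 8456 overlap no other. For this reason the levels at E16 and E17, counted with the same list as GSC WT, are given beside many results. ERCC spike-in reads per 1000 gene counts were 62.2 and 49.2 at P7 and 35.4 and 33.3 in GSC WT. Scaling to those spike-ins in place of TMM, the scaling used here, moved the median log2 fold change of all tested genes from 0.04 to −0.42, so differences below are relative to the bulk of genes.

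P7 germ cells and GSC WT differed at 4905 of 15827 tested genes, 31.0%, at an adjusted p under 0.05 (edgeR quasi-likelihood test, Benjamini-Hochberg adjustment). Of these, 2565 genes (16.2% of those tested) were higher at P7 and 2340 (14.8%) were higher in GSC WT, and log2 fold changes below are P7 minus GSC WT. Beyond 1 on the log2 scale, 1500 genes were higher at P7 and 925 higher in GSC WT, and beyond 3 these were 538 and 152. The 2 groups did not overlap in RPM at 62.9% of tested genes. Scaled by library totals, 3215 genes were higher at P7 and 1752 lower, and scaled by ERCC reads 909 were higher and 4709 lower. The number of genes fell to 3200 without P7 replicate 1. Mean log2 levels correlated across genes at 0.943 between P7 and GSC WT, at 0.983 between the P7 libraries and at 0.987 between the GSC WT libraries. With the fetal cells the correlation of P7 was 0.743 (E16) and 0.731 (E17), and 69.7% of tested genes differed between P7 and E17 in the same fit. These correlations are over genes, which are not independent, and carry no test.

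**Figure D1:**
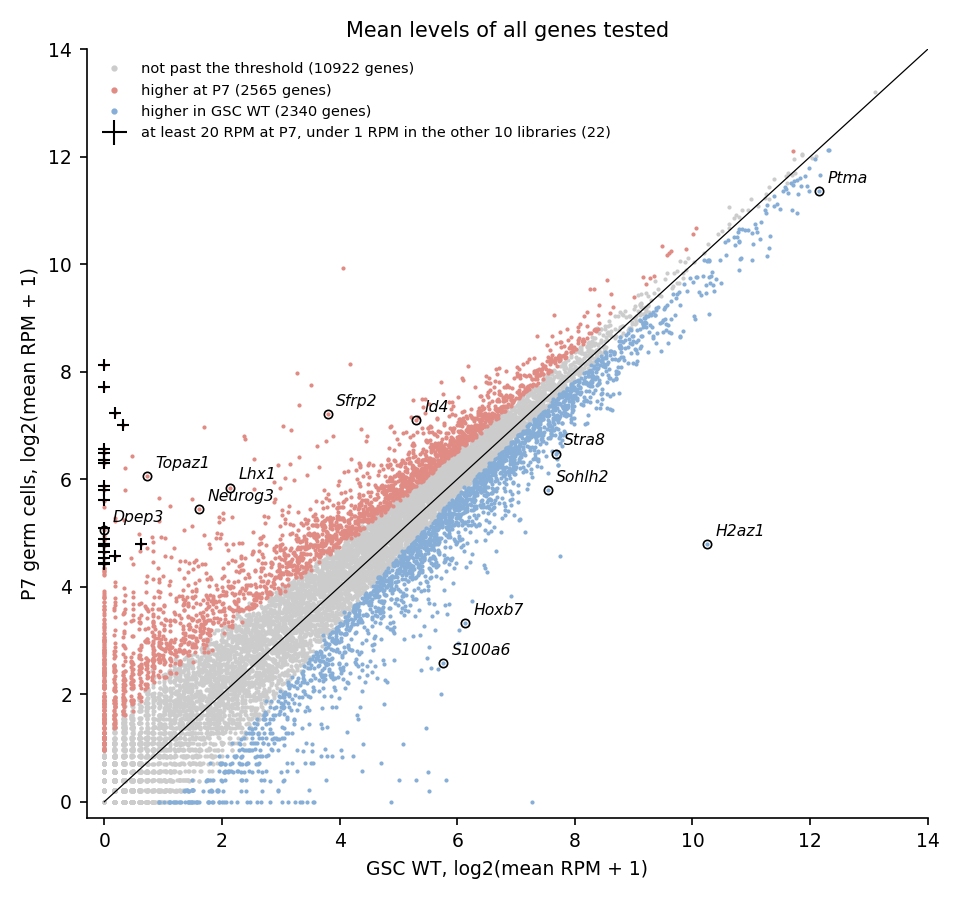
Mean level of each tested gene in GSC WT (x axis) and at P7 (y axis), both as log2(mean RPM + 1) of 2 libraries. Red points are the 2565 genes higher at P7, blue points the 2340 higher in GSC WT, and crosses the 22 genes with at least 20 RPM at P7 and under 1 RPM in each of the other 10 libraries. Most crosses lie at the left edge, where GSC WT had no count.

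Defining genes of germ cells were present in both groups, and none of 20 was at 0 in either. Ddx4 stood at 814 and 765 RPM at P7 and at 556 and 630 RPM in GSC WT. Dazl, an RNA-binding protein that keeps germ cells competent, stood at 1439 and 1476 RPM at P7 and at 1537 and 1786 RPM in GSC WT. The 20 genes summed to 6114 and 5799 RPM at P7 and to 4811 and 5163 RPM in GSC WT. Of the 20, 10 were higher at P7, and 4 were higher in GSC WT, namely Dazl, Tex11, Tex101 and Dnd1. Their median difference was 0.29, without P7 replicate 1 only 5 were higher, and without GSC WT replicate 2 only 2 were lower. With ERCC scaling 2 were higher and 6 lower. Dazl was not called without GSC WT replicate 2. Ddx4 was not called without P7 replicate 1 or 2 or GSC WT replicate 1. Tex11 was not called without P7 replicate 2 or GSC WT replicate 2. Ddx4 (−0.27) changed sign with ERCC scaling.

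Genes of somatic cells were mostly at low levels in both groups, and many had no reads in GSC WT. Of 9 matched erythroid genes, 8 had no reads in GSC WT. Of 20 tested Sertoli cell genes 11 were higher at P7 and 2 lower, and 9 of 23 matched genes were at 0 in GSC WT against 1 at P7. Their sum was 611 and 703 RPM at P7 and 638 and 635 RPM in GSC WT, mostly Dmrt1, which spermatogonia also express, at 463 and 488 RPM at P7 and 568 and 572 RPM in GSC WT. Clu, a secreted chaperone abundant in Sertoli cells, was at 23.0 and 41.4 RPM at P7 and at 1.634 and 1.495 RPM in GSC WT, and the Sertoli cystatin Cst12 at 4.28 and 14.5 RPM against 0 in both. The Sertoli hormone and receptor genes Amh and Fshr did not pass the filter on low counts. Without GSC WT replicate 1, 7 Sertoli members were higher and 1 lower, and without P7 replicate 1, 9 and 1.

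Of the other cell types, 1 of 8 tested Leydig cell genes, 2 of 8 peritubular myoid genes, 4 of 12 endothelial genes, 2 of 5 macrophage genes and 4 of 23 fibroblast and feeder genes were higher at P7, and 1 fibroblast gene was lower. In all 12.5% of Leydig, 25% of myoid, 33.3% of endothelial, 40% of macrophage and 21.7% of fibroblast genes tested were called. Over all genes tested 31.0% were called, and 16.2% were higher at P7. The filter used all 12 libraries, so genes with reads only in other libraries, such as Adgre1, count as tested. In a fit of only the 4 libraries, 1 of 2 Leydig, 2 of 4 myoid, 4 of 6 endothelial and 2 of 2 macrophage genes were higher. There 4 of 18 fibroblast genes were higher and 1 lower, and 2591 of all 11995 genes were higher at P7. Sums at P7 against GSC WT were 102 and 92.1 against 62.1 and 57.1 RPM for Leydig genes and 252 and 265 against 140.2 and 136 RPM for myoid genes. They were 63.5 and 67.1 against 40.0 and 35.1 RPM for endothelial genes and 592 and 562 against 403 and 412 RPM for fibroblast genes. Macrophage genes summed to 18.4 and 20.7 RPM at P7 and to 5.72 and 5.73 RPM in GSC WT, with 7 of 14 at 0 in each group, among them no reads for Adgre1, which encodes F4/80. Leydig genes at 0 numbered 4 at P7 and 9 in GSC WT, endothelial genes 1 and 4, myoid genes 0 and 2, and fibroblast genes 0 and 1. The endothelial count was 2 without P7 replicate 1 or GSC WT replicate 1 and 1 without P7 replicate 2 or GSC WT replicate 2, and the fibroblast count was 1 without P7 replicate 1 and 2 without GSC WT replicate 1, with 0 lower without P7 replicate 1 or GSC WT replicate 2. The Leydig call was lost without P7 replicate 1 or GSC WT replicate 2, and 1 macrophage gene was called without P7 replicate 1 or GSC WT replicate 1. With ERCC scaling 0 Leydig, 2 myoid and 1 macrophage genes were higher, 1 endothelial gene was higher and 1 lower, and 1 fibroblast gene was higher and 5 lower. Erythroid genes summed to 12.8 and 82.5 RPM in P7 replicates 1 and 2 and to 0.272 and 0.249 RPM in GSC WT, so replicate 2 held most of the globin reads. Of 5 tested erythroid genes 4 were higher at P7, and 2 without P7 replicate 2. In a fit of only the 4 libraries 1 was tested, and it was higher. In bulk samples, fewer cells of a type and less RNA per cell cannot be told apart, and the part of other cells in the results below was not tested.

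Among the 38 gene lists, that of undifferentiated spermatogonia had the most members higher at P7. Of 39 tested, 24 were higher at P7 and 3 higher in GSC WT, against 16.2% and 14.8% of all genes, and the median difference was 0.81 against 0.04 over all genes. Leaving out 1 library at a time left 18 to 21 higher, the lowest without P7 replicate 1, and 1 to 3 lower, with 1 lower without P7 replicate 2 or GSC WT replicate 2. With ERCC scaling 12 were higher and 7 lower. This list and the others were chosen with earlier results of these data known, so their direction is not independent evidence. The same shares over all genes, 16.2% and 14.8%, apply to every list count below.

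Neurog3, which marks progenitors, was at 42.4 RPM in both P7 libraries and at 1.63 and 2.49 RPM in GSC WT, a log2 difference of 4.20 (SE 0.45, adjusted p = 2.65e-09). It was near 0 in fetal cells, with a mean of 0.578 RPM at E17. Lhx1, a LIM homeobox factor induced by GDNF, was at 48.3 and 64.3 RPM at P7 and at 4.08 and 2.74 RPM in GSC WT (3.92, SE 0.33, adjusted p = 1.16e-11). For both genes the P7 libraries lay far above GSC WT and above the fetal means, which for Lhx1 were 0.673 RPM at E16 and 1.34 RPM at E17. Both were low in all GSC WT and fetal libraries, which share a gene list. Their differences therefore cannot be told apart from that of the lists. Egr2, a zinc finger factor of the early growth response family, was at 106 and 101 RPM at P7 and at 13.1 and 12.2 RPM in GSC WT (2.90, SE 0.24). Id4, an inhibitor of helix-loop-helix factors that marks stem cells, was at 155 and 117 RPM at P7 and at 32.1 and 44.6 RPM in GSC WT (1.69, SE 0.19, adjusted p = 9.46e-09). T, the T-box factor brachyury, was at 24.7 and 19.8 RPM at P7 and at 0 and 0.748 RPM in GSC WT, and it was also present in fetal cells, at a mean of 52.8 RPM at E16.

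Cdh1, the adhesion protein E-cadherin, was at 50.3 and 61.2 RPM at P7 and at 5.99 and 3.74 RPM in GSC WT (3.39, SE 0.33, adjusted p = 2.14e-10). Tcl1, a coactivator of the kinase Akt, was at 109 and 113 RPM against 21.5 and 20.9 RPM. Tspan8, a tetraspanin, was at 25.6 and 21.3 RPM against 4.36 and 4.98 RPM. Itga6, an integrin used to enrich stem cells, rose less, from 57.2 and 62.3 RPM in GSC WT to 98.98 and 113 RPM at P7 (0.70, SE 0.18, adjusted p = 0.00307). The RNA-binding protein gene Lin28a was at 20.1 and 13.6 RPM at P7 and at 3.81 and 4.74 RPM in GSC WT. Sall4, a zinc finger factor that spermatogonia need, was at 283 and 248 RPM against 127 and 135 RPM, and Zbtb16, also called Plzf, at 169 and 146 RPM against 100.2 and 103 RPM. Itga6 was not called without P7 replicate 2. Lin28a was not called without P7 replicate 1 or GSC WT replicate 1. Zbtb16 was not called without P7 replicate 1 or GSC WT replicate 1 or 2. Zbtb16 (−0.06) changed sign with ERCC scaling.

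Several core genes of the undifferentiated state were not called. Gfra1 was at 186 and 158 RPM at P7 and at 139 and 124 RPM in GSC WT (0.26, SE 0.13, adjusted p = 0.141). Nanos2, a translational repressor of stem cells, was at 7.89 and 11.8 RPM against 12.5 and 10.2 RPM, and its relative Nanos3 at 47.7 and 62.1 RPM against 66.7 and 50.1 RPM. Sox3, a progenitor factor, was at 86.5 and 72.6 RPM against 90.7 and 72.5 RPM. The ranges of P7 and GSC WT overlapped for these last 3 genes. The members higher in GSC WT were Ddit4, an inhibitor of mTORC1, at 8.55 and 11.4 RPM at P7 and 51.7 and 41.9 RPM in GSC WT (−2.34, SE 0.27), Mycn, a growth-promoting factor, and the syndecan gene Sdc4. Sdc4 was not called without P7 replicate 2 or GSC WT replicate 2.

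**Figure D2:**
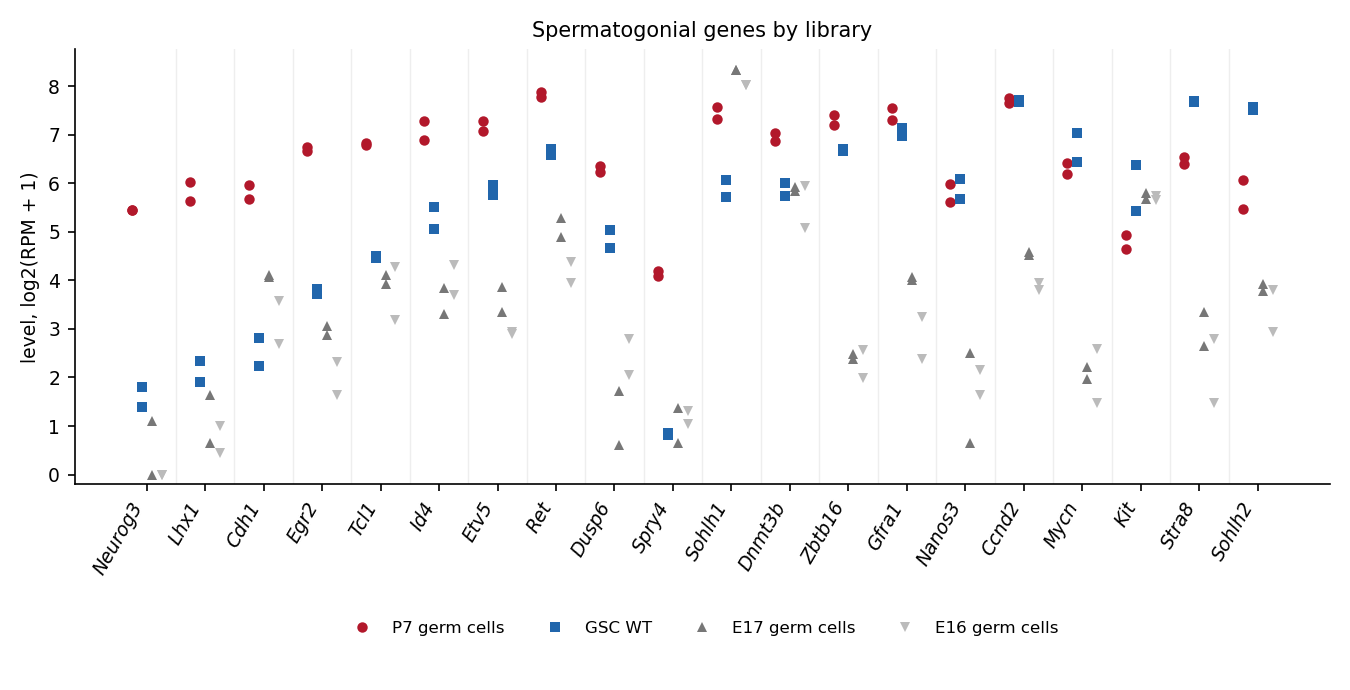
Level of 20 spermatogonial genes as log2(RPM + 1) in each of 8 libraries, 2 per group, at P7 (red circles), in GSC WT (blue squares), at E17 (dark triangles) and at E16 (light triangles). Neurog3, Lhx1 and Cdh1 lie well above GSC WT at P7, Gfra1, which was not called, lies slightly above it, Nanos3 and Ccnd2 lie together in both, and Stra8 and Sohlh2 lie lower at P7.

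Genes of differentiating spermatogonia went both ways, 5 higher at P7 and 7 higher in GSC WT among 16 tested. Sohlh2, a helix-loop-helix factor of early differentiation, was at 43.1 and 66.2 RPM at P7 and at 181 and 190 RPM in GSC WT (−1.89, SE 0.16, adjusted p = 6.37e-12). Its partner Sohlh1 went the other way, with 158 and 188 RPM at P7 and 66.4 and 51.3 RPM in GSC WT (1.43, SE 0.15, adjusted p = 1.94e-09). Stra8, the retinoic acid target that opens meiosis, was at 83.2 and 92.4 RPM at P7 and at 205 and 203 RPM in GSC WT (−1.34, SE 0.14, adjusted p = 1.88e-09). Kit, the receptor of differentiating spermatogonia, was at 24.0 and 29.7 RPM at P7 and at 42.2 and 82.0 RPM in GSC WT (−1.33, SE 0.23). Dnmt3b, a DNA methyltransferase that rises with differentiation, was at 130 and 116 RPM against 62.9 and 52.6 RPM, and Uchl1, a ubiquitin hydrolase of spermatogonia, at 1113 and 1299 RPM against 805 and 778 RPM. Ccnd2, the cyclin of differentiating spermatogonia, was not called, with 199.9 and 213.9 RPM against 208 and 203 RPM. With ERCC scaling 2 of the 16 were higher and 9 lower. Uchl1 (−0.06) changed sign with ERCC scaling.

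Retinoic acid genes moved in both directions. Cyp26a1, which breaks the ligand down, was higher at P7, at 14.1 and 8.04 RPM against 0.272 and 0.997 RPM in GSC WT (3.89, SE 0.74, adjusted p = 8.26e-05). Aldh1a1, an enzyme that makes the ligand, was also higher at P7, at 5.26 and 8.96 RPM against 2.18 and 0.997 RPM (2.04, SE 0.60), and it overlaps other annotated genes. Its call was lost without P7 replicate 2 (1.56) or GSC WT replicate 2 (1.55). The cellular binding protein gene Crabp1 was higher in GSC WT, at 49.0 and 67.1 RPM at P7 and 142 and 120 RPM in GSC WT (−1.29, SE 0.18). Among receptors Rxrb was higher in GSC WT, at 52.8 and 47.1 RPM against 18.7 and 21.3 RPM, while Rara was at 16.1 and 15.4 RPM at P7 and at 14.4 and 15.9 RPM in GSC WT and was not called. In all 5 of 22 tested members were higher at P7 and 7 higher in GSC WT, but without P7 replicate 2 only 1 was higher, without P7 replicate 1 there were 3, and without GSC WT replicate 2 there were 2.

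One list held the GDNF and FGF receptors and the outputs of the ERK kinase pathway. Of its 23 tested members 13 were higher at P7 and 2 higher in GSC WT, with a median of 1.08. Over all genes 16.2% were higher at P7 and 14.8% higher in GSC WT. Of the receptors Gfra1, Ret, Fgfr1 and Fgfr3, only Ret was called. Ret was at 219 and 235 RPM at P7 and at 103 and 94.4 RPM in GSC WT (1.08, SE 0.13, adjusted p = 5.61e-08). Of the FGF receptors, Fgfr1 was at 67.1 and 65.8 RPM at P7 and at 62.9 and 63.8 RPM in GSC WT, and Fgfr3 at 7.56 and 8.35 RPM against 6.81 and 4.74 RPM, and neither was called. Among feedback inhibitors of the pathway, Spry4, a Sprouty inhibitor, was at 16.1 and 17.3 RPM at P7 and at 0.817 and 0.748 RPM in GSC WT (4.23, SE 0.53, adjusted p = 7.44e-08). Dusp4, a phosphatase of ERK, was at 12.2 and 14.5 RPM against 0.544 and 0 RPM, and Dusp6 at 80.9 and 73.9 RPM against 24.2 and 31.6 RPM (1.34, SE 0.18, adjusted p = 3.94e-07). Spry4 was at most 1.57 RPM in the fetal libraries, and Dusp4 at most 2.09 RPM in any library of the other gene list. The differences of Spry4 and Dusp4 cannot be told apart from that of the lists. Spred2 was at 41.1 and 33.4 RPM against 6.81 and 7.97 RPM (2.20, SE 0.32). In fetal cells Dusp6 averaged 4.57 RPM at E16 and 1.42 RPM at E17, and Spred2 4.25 and 6.74 RPM.

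Etv5, the ETS factor downstream of GDNF and FGF, was at 155 and 134 RPM at P7 and at 61.5 and 52.8 RPM in GSC WT (1.21, SE 0.15, adjusted p = 3.13e-08). The related Etv4 was at 12.8 and 19.2 RPM against 16.3 and 11.2 RPM, and Spred1 at 106 and 104 RPM against 102 and 116 RPM, and neither was called. Dusp5, another ERK phosphatase, was at 29.3 and 30.0 RPM at P7 and at 0 in GSC WT, E16 and E17, with at most 1.397 RPM in any library of the other gene list, so its difference cannot be told apart from that of the lists. Without single libraries 10 to 11 members of the list were higher, and the 2 members higher in GSC WT, Mycn and Myc, became 0 without P7 replicate 2 and 1 without P7 replicate 1 or GSC WT replicate 2. With ERCC scaling 7 were higher and 3 lower. Myc was not called without P7 replicate 1 or 2.

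Immediate early genes, which are switched on within minutes of growth factor signals, gave 9 members higher at P7 and 4 higher in GSC WT of 29 tested. Over all genes 16.2% were higher at P7 and 14.8% higher in GSC WT, the latter near the share of this list. Egr1 was at 199.9 and 159.5 RPM at P7 and at 96.7 and 109 RPM in GSC WT (0.68, SE 0.15, adjusted p = 0.000554). Fos, a subunit of AP-1, was at 34.9 and 20.4 RPM against 8.17 and 9.97 RPM (1.47, SE 0.34, adjusted p = 0.000809), and Klf6 at 19.7 and 15.2 RPM against 2.45 and 3.74 RPM. Dusp1, a phosphatase of MAP kinases, was at 42.4 and 38.02 RPM against 21.0 and 12.5 RPM (1.14, SE 0.25). Ier5, Junb, Ier3 and Myc were higher in GSC WT, Junb with 3.62 and 1.54 RPM at P7 and 8.17 and 7.23 RPM in GSC WT. The number higher at P7 was 5 without P7 replicate 1, and the number higher in GSC WT was 2 without P7 replicate 2. With ERCC scaling 4 were higher and 5 lower. Egr1, Fos and Ier3 were not called without P7 replicate 1. Junb was not called without P7 replicate 2.

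The letters of a cAMP response element, TGACGTCA, were looked for on both strands in the promoters of these genes, 250 bases before to 50 bases after the start in RefSeq on GRCm38.p6. They were in the promoters of 3 of 22 members with a promoter (13.6%; Dusp1, Btg2 and Maff), against 3.32% of the 12659 tested genes with a promoter. The AP-1 letters TGANTCA were in 1 (4.55%), that of Csrnp1, against 6.25%. Of the 3 genes with the first motif, Dusp1 was called and Btg2 and Maff were not. The 250 bases before the Dusp1 start, at chr17:26508473-26508722 on the minus strand, are shown because they hold the motif, in capitals:
Dusp1: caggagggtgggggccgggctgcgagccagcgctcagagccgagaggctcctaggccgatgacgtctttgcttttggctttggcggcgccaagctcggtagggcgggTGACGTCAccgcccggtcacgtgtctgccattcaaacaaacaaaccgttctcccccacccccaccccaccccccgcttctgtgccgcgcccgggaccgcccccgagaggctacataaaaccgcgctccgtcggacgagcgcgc
A match is a description of these letters and shows no binding.

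Pluripotency genes that germ cells keep were higher at P7 in 10 of 25 tested members and higher in GSC WT in 1. Pou5f1, the factor Oct4, was at 29.9 and 24.1 RPM at P7 and at 5.45 and 5.23 RPM in GSC WT (2.20, SE 0.27, adjusted p = 3.69e-08). Dppa4, a chromatin protein of early development, was at 105 and 83.2 RPM against 26.4 and 28.9 RPM (1.64, SE 0.14, adjusted p = 2.44e-11), and Utf1 at 22.7 and 28.8 RPM against 9.53 and 9.22 RPM. All 3 were far higher in fetal cells, where Dppa4 averaged 504 RPM at E16 and 543 RPM at E17. Dppa5a was the member higher in GSC WT, at 84.7 and 72.8 RPM against 37.8 and 37.7 RPM. Nanog was under 2 RPM in all 4 libraries, and Zfp42, at 52.3 and 39.2 RPM against 35.4 and 40.6 RPM, was not called. Without P7 replicate 1 the number higher was 5 and it was 6 without GSC WT replicate 1, DESeq2 called 6, and with ERCC scaling 6 were higher and 2 lower.

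Genes of the piRNA pathway, in which PIWI proteins use small RNAs against transposons, were higher at P7 in 14 of 29 tested members and higher in GSC WT only in Tdrkh. Tdrd9, a helicase of nuclear piRNA silencing, was at 140 and 99.2 RPM at P7 and at 7.62 and 8.47 RPM in GSC WT (3.76, SE 0.19, adjusted p = 5.82e-18). Its fetal means were higher still, 829 RPM at E16 and 763 RPM at E17. Morc1, an ATPase needed for transposon silencing, was at 182 and 174 RPM against 42.2 and 42.9 RPM (1.94, SE 0.13), and Tex19.1 at 138 and 145 RPM against 36.8 and 42.1 RPM (1.71, SE 0.19). Spocd1, at 34.2 and 32.8 RPM against 12.2 and 12.7 RPM, and the PIWI protein gene Piwil4, at 69.1 and 58.1 RPM against 27.2 and 30.4 RPM, act in the nuclear arm. The cytoplasmic PIWI gene Piwil2 was at 350 and 311 RPM against 256 and 255 RPM and was not called (0.24, SE 0.10, adjusted p = 0.0657). The number higher was 9 without P7 replicate 1, and with ERCC scaling 5 were higher and 5 lower.

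DNA methylation genes were higher at P7 in 8 of 18 tested members and higher in GSC WT in 4. Dnmt3l, the cofactor of de novo methylation, was at 7.23 and 9.89 RPM at P7 and at 2.72 and 0.748 RPM in GSC WT, both far under its fetal means of 940 and 772 RPM. Dnmt3a, a de novo methyltransferase, was at 118 and 119 RPM against 68.9 and 72.0 RPM (0.62, SE 0.13, adjusted p = 0.000238). The genes of maintenance went the other way, with Uhrf1 at 79.9 and 104 RPM at P7 and 106 and 134 RPM in GSC WT (−0.50, SE 0.15) and Dnmt1 at 192 and 227 RPM against 248 and 238 RPM (−0.34, SE 0.11, adjusted p = 0.0205). Trim28, a corepressor, was at 313 and 335 RPM against 521 and 466 RPM. Without P7 replicate 1, 5 were higher and 1 lower, and without GSC WT replicate 1, 7 and 2. With library totals 8 were higher and 1 lower, and with ERCC scaling 2 and 5. Dnmt1 was not called without P7 replicate 1 or GSC WT replicate 1. Uhrf1 was not called without P7 replicate 1 or GSC WT replicate 2.

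Among 44 tested genes of meiotic prophase 6 were higher at P7 and 16 higher in GSC WT, with a median of −0.33. Over all genes these shares were 16.2%, near that of this list, and 14.8%. Members higher in GSC WT included Meioc, needed to proceed into meiotic prophase, at 41.7 and 44.1 RPM against 16.4 and 18.2 RPM at P7 (−1.43, SE 0.20), and Syce3, of the synaptonemal complex, at 139 and 121 RPM against 49.0 and 56.9 RPM (−1.42, SE 0.15). The axis gene Sycp3 was at 201 and 228 RPM at P7 and at 288 and 372 RPM in GSC WT. Sycp1, of the same complex, went the other way, with 210.5 and 206 RPM at P7 and 92.6 and 127 RPM in GSC WT (0.80, SE 0.15, adjusted p = 6.03e-05). Spo11, which makes meiotic double-strand breaks, was at 7.56 and 11.8 RPM at P7 and at 0 and 0.997 RPM in GSC WT. With ERCC scaling 2 were higher and 21 lower.

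Among cohesin genes, the meiotic subunits Stag3, Smc1b and Rec8 were lower at P7, and the general subunits Rad21, Smc3, Smc1a, Stag1 and Stag2 were not called. Stag3, the subunit this series studied, was at 227 and 233 RPM at P7 and at 385 and 420 RPM in GSC WT (−0.93, SE 0.11, adjusted p = 1.25e-08). Its partner subunits Smc1b, at 118 and 145 RPM against 295 and 294 RPM (−1.28, SE 0.12), and Rec8, at 31.6 and 48.2 RPM against 103 and 93.5 RPM (−1.42, SE 0.17), differed in the same direction. A further meiotic subunit, Rad21l, was at 19.07 and 17.93 RPM against 11.2 and 20.4 RPM and was not called. Rad21 was at 658 and 584 RPM against 524 and 595 RPM (0.02, SE 0.10), Smc3 at 448 and 388 RPM against 340 and 407 RPM (0.04, SE 0.11), and Stag1 at 199 and 190 RPM against 167 and 185 RPM. Of 23 tested members 4 were higher and 6 lower, and with ERCC scaling 0 and 12. Those higher made a share near the 16.2% of all genes, and 14.8% of all genes were lower. Without P7 replicate 1, 2 were higher and 5 lower.

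WNT and NOTCH genes were higher at P7 in 14 of 36 tested members and higher in GSC WT in 3, with a median of 0.65. Over all genes these shares were 16.2% and 14.8%. With a mean of at least 10 RPM in either group, 11 of 24 were higher and 4 lower, and the median was 0.08. The median with ERCC scaling was also 0.08. Lef1, a nuclear effector and target, was at 18.4 and 19.8 RPM at P7 and at 1.09 and 1.74 RPM in GSC WT (3.58, SE 0.51, adjusted p = 7.75e-07). Axin2, the feedback inhibitor, was at 15.5 and 16.4 RPM against 3.27 and 3.99 RPM (1.99, SE 0.43), and Sfrp2, a secreted WNT antagonist, at 142 and 152 RPM against 11.4 and 14.4 RPM (3.37, SE 0.23, adjusted p = 3.65e-14). Ctnnb1, the antagonist Sfrp1 and the receptor Fzd2 were higher in GSC WT, Fzd2 with 17.8 and 14.5 RPM at P7 and 40.6 and 46.1 RPM in GSC WT (−1.55, SE 0.23). In the NOTCH pathway, the receptor Notch1 was at 27.3 and 22.2 RPM against 5.72 and 8.72 RPM (1.64, SE 0.35), and the target Hes1 at 61.8 and 51.6 RPM against 19.9 and 27.2 RPM (1.14, SE 0.21). The number higher was 9 without P7 replicate 1 and 9 without GSC WT replicate 1, and with ERCC scaling 6 were higher and 7 lower. Ctnnb1 was not called without GSC WT replicate 2.

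BMP and ID genes gave 5 members higher at P7 and 3 higher in GSC WT of 28. The inhibitory Smad6 was at 13.2 and 13.6 RPM at P7 and at 1.91 and 3.99 RPM in GSC WT (2.03, SE 0.47), and Smad7 at 27.9 and 26.3 RPM against 9.53 and 14.2 RPM. Unlike Id4, Id1 was higher in GSC WT, at 17.7 and 15.7 RPM against 2.30 and 4.95 RPM at P7 (−2.30, SE 0.38, adjusted p = 1.2e-05). Id3 was at 11.7 and 14.4 RPM in GSC WT and at 7.56 and 7.11 RPM at P7. These counts are near the shares over all genes, and without P7 replicate 1 they were 2 and 1, without P7 replicate 2 they were 3 and 1, without GSC WT replicate 1 they were 2 and 3, and without GSC WT replicate 2 they were 5 and 1. With ERCC scaling they were 2 and 5. Id3 was not called without P7 replicate 1 or 2 or GSC WT replicate 2. Smad7 was not called without P7 replicate 1 or GSC WT replicate 1.

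Nuclear genes of oxidative phosphorylation, the respiratory chain and ATP synthase of mitochondria, were mostly higher in GSC WT. Of 84 tested, 65 were higher in GSC WT and 0 higher at P7 (edgeR), with a median of −0.55. At an unadjusted p under 0.05 the numbers were 69 and 0, and DESeq2 called 65 and 0. Ndufa1, of complex I, was at 38.1 and 40.8 RPM at P7 and at 124 and 124 RPM in GSC WT (−1.77, SE 0.17, adjusted p = 2.14e-10). Uqcrq, of complex III, was at 141 and 173 RPM against 413 and 357 RPM (−1.42, SE 0.12). Cox7a1, of complex IV, was at 4.604 and 5.255 RPM against 24.0 and 28.2 RPM, and Atp5k, of ATP synthase, at 66.8 and 85.0 RPM against 220.5 and 198 RPM (−1.59, SE 0.14). Members not called included Cox8a, at 528 and 568 RPM against 570.4 and 535 RPM, and Sdha, of complex II, at 311 and 299 RPM against 292 and 316 RPM. Without single libraries 54 to 61 were higher in GSC WT, and with library totals 58 were higher in GSC WT and 2 at P7.

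Ribosomal protein genes showed a smaller difference of the same sign, with 53 of 86 higher in GSC WT, 8 higher at P7 and a median of −0.32. Rpl36 was at 376 and 429 RPM at P7 and at 927 and 836 RPM in GSC WT (−1.26, SE 0.10, adjusted p = 1.65e-12), and Rpl37a at 1074 and 1210 RPM against 2550 and 2389 RPM. Those higher at P7 included the paralogue Rpl39l, at 736 and 751 RPM against 323 and 318 RPM (1.09, SE 0.10), and Rpl10l, at 444 and 478 RPM against 303 and 285 RPM. Counts of ribosomal genes may be shared with near-identical pseudogenes, so single members are uncertain. With library totals 14 were higher at P7 and 45 lower, and with ERCC scaling 2 and 77. Rpl10l (−0.02) changed sign with ERCC scaling.

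Short transcripts tended to be higher in GSC WT over all genes, which bears on both lists. Among tested genes with a transcript of 500 bases or less, 13.6% were higher at P7 and 28.8% higher in GSC WT, and above 8000 bases these were 40.6% and 2.73%. The median transcript was 651 bases in the respiration list and 689 bases in the ribosomal list. With an offset for transcript length, 56 respiration genes were higher in GSC WT and 1 at P7 (median −0.47), and 40 and 10 ribosomal genes (median −0.18).

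**Figure D3:**
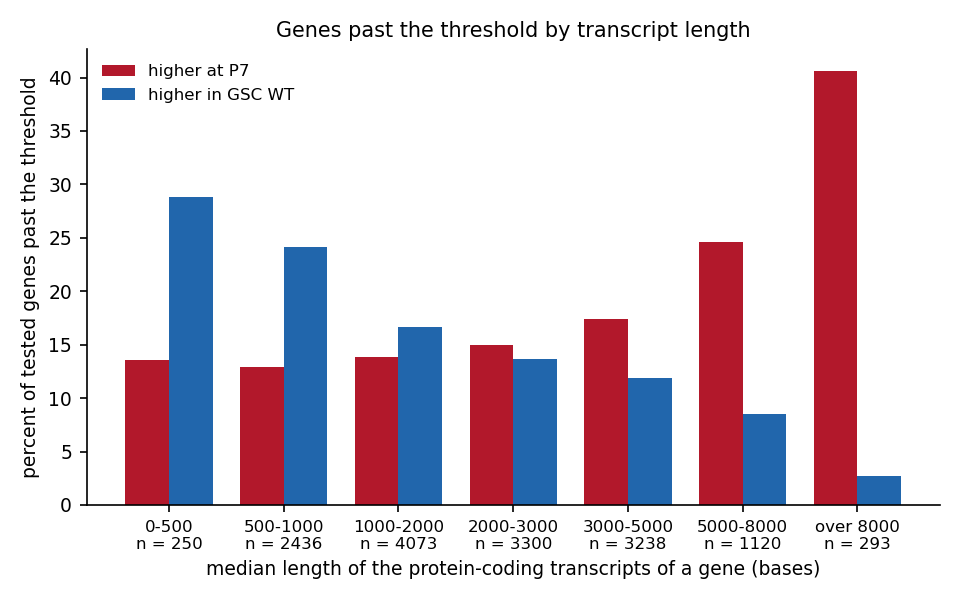
Percent of tested genes higher at P7 (red bars) and higher in GSC WT (blue bars), on the y axis, by the median length in bases of a gene's protein-coding transcripts, on the x axis, for 14710 tested genes with a length. The red bars go from 13.6% in the shortest class to 40.6% in the longest, and the blue bars from 28.8% to 2.73%.

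Glycolysis genes were divided, 6 higher at P7 and 8 higher in GSC WT among 24. Hk2, a hexokinase, was at 30.9 and 29.7 RPM at P7 and at 5.45 and 8.72 RPM in GSC WT (1.96, SE 0.35, adjusted p = 2.86e-05), and Pkm, pyruvate kinase, at 499 and 545 RPM against 301 and 265 RPM (0.76, SE 0.10). Gapdh went the other way, at 667 and 747 RPM against 1246 and 1165 RPM (−0.90, SE 0.10, adjusted p = 7.67e-09), as did Ldha, lactate dehydrogenase, at 30.2 and 28.4 RPM against 58.5 and 54.6 RPM. The letters of the hypoxia response element, ACGTG on either strand, were in promoters of 14 of 23 members with a promoter (60.9%). Among tested genes the share was 27.9%. CACGTG, which contains these letters, was in promoters of 4 members (17.4% against 11.2%). Without GSC WT replicate 1 the counts were 3 and 6, without P7 replicate 1 or 2 they were 4 and 6, without GSC WT replicate 2 they were 4 and 7, with library totals 10 and 7, and with ERCC scaling 2 and 9. Genes of the hypoxia response gave 6 and 4 of 20, led by the factor Epas1, at 46.0 and 31.8 RPM against 4.08 and 6.98 RPM (2.67, SE 0.35). Without P7 replicate 1 or GSC WT replicate 1 the hypoxia counts were 3 and 4, and with ERCC scaling 2 and 5.

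Cholesterol synthesis genes were higher at P7 in 11 of 29 tested members and higher in GSC WT in 1. Dhcr7, the last step of the pathway, was at 67.7 and 62.4 RPM at P7 and at 25.1 and 18.2 RPM in GSC WT (1.47, SE 0.22, adjusted p = 2.65e-06), and Lss, an earlier enzyme, at 69.4 and 84.4 RPM against 34.0 and 30.1 RPM. With a library left out the count higher at P7 was 7 (without P7 replicate 2) or 8, and the count higher in GSC WT was 0 without P7 replicate 1, GSC WT replicate 1 or GSC WT replicate 2. With ERCC scaling 2 were higher and 2 lower.

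Serine synthesis and the amino acid response gave 3 members higher at P7 and 9 higher in GSC WT among 26. The 3 were Sesn2 (8.68), Vldlr (4.18) and Cebpg (0.62), and whether the gene lists gave the large Sesn2 difference was not tested. Phgdh, the first enzyme of serine synthesis, was at 169 and 180.5 RPM at P7 and at 348 and 317 RPM in GSC WT (−1.05, SE 0.11, adjusted p = 7.14e-10), and Psat1, the next, at 133 and 130.1 RPM against 172 and 149 RPM. Asns, asparagine synthetase, was at 28.3 and 27.8 RPM at P7 and at 63.7 and 67.0 RPM in GSC WT (−1.35, SE 0.15), below fetal means of 324 and 340 RPM. Psph and Mthfd2 were not called. Counts were 3 and 4 without P7 replicate 1, 1 and 6 without P7 replicate 2, 1 and 4 without GSC WT replicate 1, and 4 and 5 with library totals. The letters TGATGNAA of the C/EBP-ATF response element, on either strand, were in promoters of 7 of 23 members with a promoter (30.4%). Among tested genes the share was 2.93%. The 250 bases before the Asns start, at chr6:7693210-7693459 on the minus strand (RefSeq, GRCm38.p6), are shown for the motif, in capitals: Psat1 was not called without P7 replicate 1 or 2 or GSC WT replicate 1.
Asns: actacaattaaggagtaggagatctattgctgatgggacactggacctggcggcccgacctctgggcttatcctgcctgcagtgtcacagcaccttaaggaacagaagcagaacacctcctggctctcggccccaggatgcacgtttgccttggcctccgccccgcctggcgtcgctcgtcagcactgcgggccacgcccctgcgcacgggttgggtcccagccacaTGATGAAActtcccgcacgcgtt
Of the 7 genes with these letters, Asns and Vldlr were called, in opposite directions, and Vldlr rested on P7 replicate 2, with 0 and 6.49 RPM at P7. Vldlr was not called without P7 replicate 2 or GSC WT replicate 1.

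In redox metabolism 4 of 27 tested members were higher at P7 and 7 higher in GSC WT. Over all genes 16.2% were higher at P7, near the share of this list, and 14.8% were higher in GSC WT. Gpx4, which removes lipid peroxides, was at 144 and 194 RPM at P7 and at 348 and 345 RPM in GSC WT (−1.16, SE 0.13), Txn1, thioredoxin, at 123 and 157 RPM against 247 and 259.7 RPM, and Prdx1 at 2667 and 2964 RPM against 3614 and 3716 RPM (−0.51, SE 0.08). Gclm, a subunit of glutathione synthesis, was higher at P7, at 188 and 185 RPM against 81.4 and 84.0 RPM (1.04, SE 0.15). The count higher was 1 without P7 replicate 2 and 2 without GSC WT replicate 2, and with ERCC scaling 0 (17 lower).

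Chaperone genes were higher in GSC WT in 15 of 20 tested members and higher at P7 in 0 (edgeR). At an unadjusted p under 0.05 the numbers were 16 and 0, and DESeq2 called 16 and 0. The mitochondrial pair Hspd1, at 416 and 425 RPM at P7 and 769 and 822 RPM in GSC WT (−1.05, SE 0.10), and Hspe1, at 1031 and 1123 RPM against 2013 and 2102 RPM (−1.06, SE 0.09, adjusted p = 2.9e-11), differed by similar amounts. Hsp90ab1 was at 2078 and 2112 RPM against 2846 and 2919 RPM (−0.59, SE 0.08). Hspa4 and Hsp90b1 were not called. Without 1 library 10 to 13 were higher in GSC WT, the lowest without GSC WT replicate 1.

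Cell cycle genes gave 7 members higher at P7 and 12 higher in GSC WT among 38, with a median of −0.02. The share higher at P7 was near the 16.2% of all genes, and 14.8% of all genes were higher in GSC WT. The proliferation marker Mki67 was not called, at 162 and 155 RPM at P7 and 124 and 116 RPM in GSC WT (0.28, SE 0.13, adjusted p = 0.096). Higher at P7 were the kinase inhibitor Cdkn1c, at 80.9 and 70.2 RPM against 19.6 and 25.7 RPM (1.61, SE 0.18), Cdk6, at 38.8 and 34.9 RPM against 10.62 and 11.96 RPM, and Ccnd1, at 72.0 and 86.5 RPM against 52.5 and 49.8 RPM. Higher in GSC WT were Top2a, at 537 and 511 RPM against 274 and 292 RPM (−1.01, SE 0.10), Cdk2, at 46.3 and 51.1 RPM against 22.4 and 17 RPM (−1.44, SE 0.20), and Cdkn1a, at 18.5 and 31.1 RPM against 14.1 and 6.80 RPM. With ERCC scaling 3 were higher and 18 lower. Ccnd1 was not called without P7 replicate 2 or GSC WT replicate 1 or 2. Cdkn1a was not called without GSC WT replicate 2. Ccnd1 (−0.04) changed sign with ERCC scaling.

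DNA replication genes were higher in GSC WT in 16 of 39 tested members and higher at P7 in 2, Gins4 and Pole, with a median of −0.27. Tk1, thymidine kinase, was at 39.1 and 60.6 RPM at P7 and at 111 and 92.0 RPM in GSC WT (−1.15, SE 0.18), Rrm1, of ribonucleotide reductase, at 211 and 232 RPM against 330.3 and 352 RPM (−0.75, SE 0.12), and the helicase subunit Mcm2 at 298 and 393 RPM against 456 and 468 RPM (−0.54, SE 0.11). Mcm7 differed by less, at 403 and 414 RPM against 477 and 462 RPM (−0.33, SE 0.10, adjusted p = 0.00955), and Pcna, the sliding clamp, at 409 and 452 RPM against 348 and 433 RPM, was not called. The count higher in GSC WT was 6 without P7 replicate 1, 8 without GSC WT replicate 1, 11 without GSC WT replicate 2 and 8 with library totals. The 2 higher at P7 became 0 without P7 replicate 1 or GSC WT replicate 1 and 1 without either of the others. Mcm7 was not called without P7 replicate 1 or GSC WT replicate 1. Gins4 (−0.13) and Pole (−0.19) changed sign with ERCC scaling.

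The letters of an E2F site, TTTCCCGC on either strand, were in promoters of 6 of 30 replication members with a promoter (20%). Among tested genes the share was 2.101%. The 6 were Mcm3, Mcm7, Cdc6, Gins3, Rfc3 and Pold1. Of these Mcm3, Mcm7, Rfc3 and Pold1 were called, all higher in GSC WT. Members whose promoters lack the letters were also called higher in GSC WT, among them Mcm2, Tk1 and Rrm1. The 250 bases before one of the Mcm7 starts, at chr5:138171884-138172133 on the minus strand (RefSeq, GRCm38.p6), are shown for the motif, whose reverse complement is in capitals: Mcm3 was not called without P7 replicate 1 or GSC WT replicate 1 or 2.
Mcm7: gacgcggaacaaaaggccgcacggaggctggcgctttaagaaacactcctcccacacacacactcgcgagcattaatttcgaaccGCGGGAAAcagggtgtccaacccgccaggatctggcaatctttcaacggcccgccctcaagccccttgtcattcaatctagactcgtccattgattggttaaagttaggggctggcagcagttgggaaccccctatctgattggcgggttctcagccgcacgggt

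**Figure D4:**
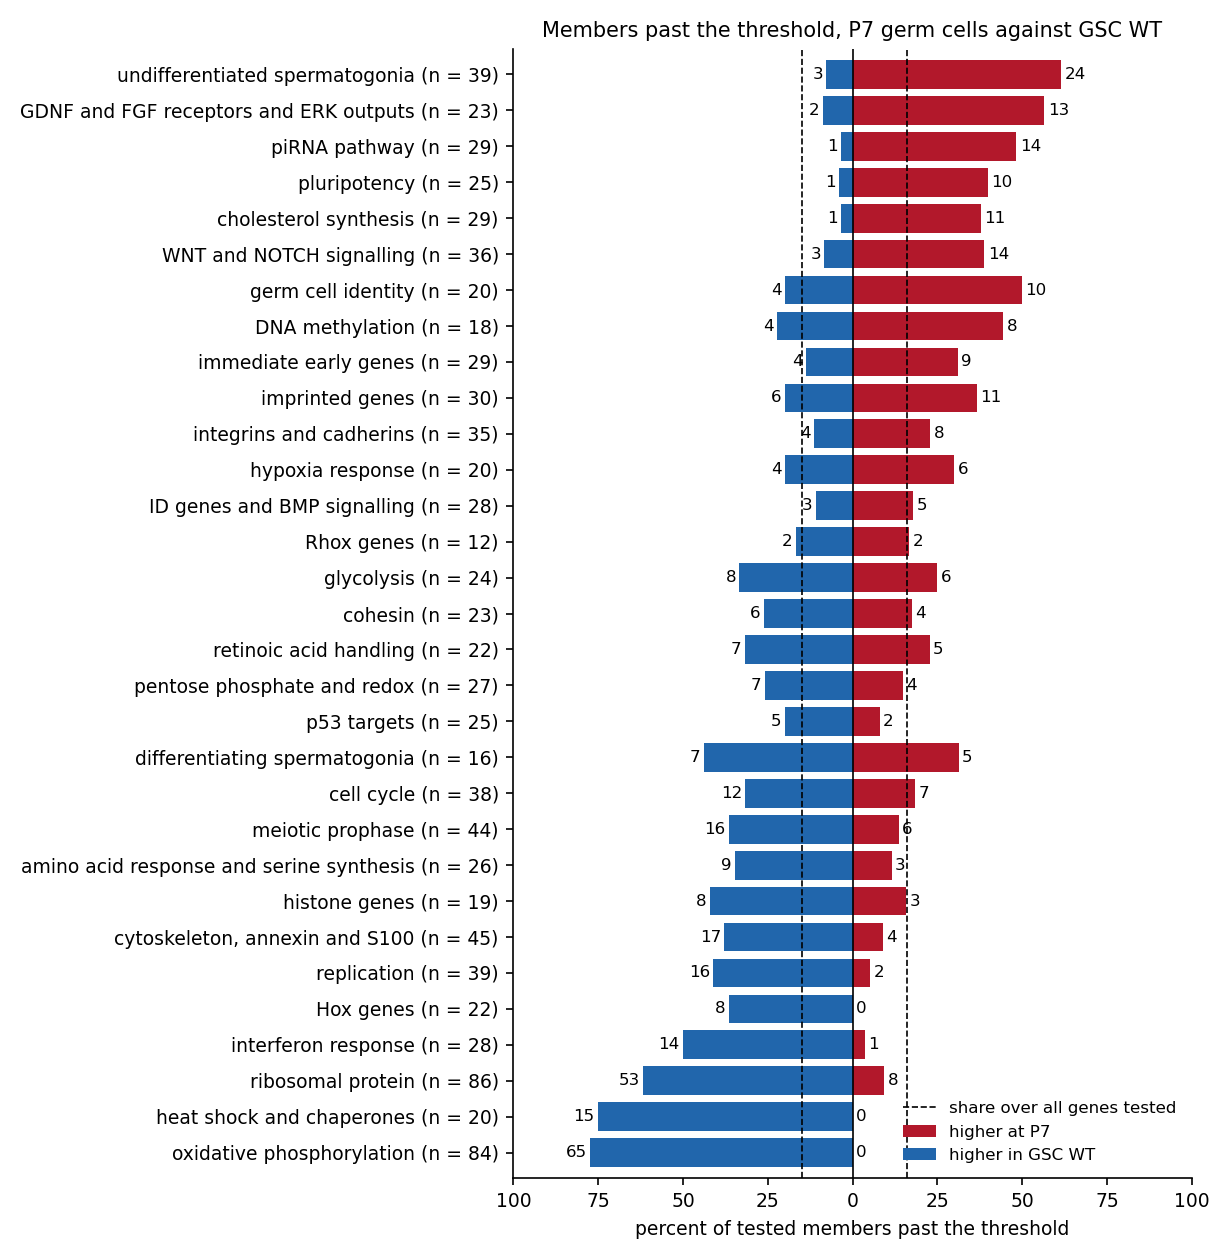
Share of tested members higher at P7 (red, to the right) and higher in GSC WT (blue, to the left) in each gene list, in percent, with dashed lines at the shares over all tested genes, 16.2% and 14.8%. The lists of somatic and blood cells are not drawn. Undifferentiated spermatogonia lie far to the right, and oxidative phosphorylation and chaperones far to the left.

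Genes of the cytoskeleton, annexins and S100 proteins were higher in GSC WT in 17 of 45 tested members and higher at P7 in 4. S100a6 was at 6.58 and 3.40 RPM at P7 and at 62.9 and 43.6 RPM in GSC WT (−3.54, SE 0.27, adjusted p = 7.46e-13), with fetal means of 69.9 and 79.1 RPM. Cavin1, a coat protein of caveolae, was at 7.23 and 1.85 RPM against 52.0 and 47.8 RPM (−3.59, SE 0.30), Tubb6 at 10.2 and 10.8 RPM against 51.2 and 47.1 RPM, and Vim, vimentin, at 16.8 and 17.6 RPM against 45.5 and 46.4 RPM. Actg1, cytoplasmic actin, was higher at P7, at 1722 and 1523 RPM against 1083 and 1059 RPM, and Actb was not called. With ERCC scaling 1 was higher and 27 lower. Actg1 (−0.09) changed sign with ERCC scaling.

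Adhesion genes gave 8 higher at P7 and 4 higher in GSC WT of 35, so 34.3% were called, near the 31.0% of all tested genes. Cd63, a tetraspanin, was at 12.8 and 11.8 RPM at P7 and at 74.6 and 75.8 RPM in GSC WT (−2.74, SE 0.22, adjusted p = 2.67e-12), and Epcam at 82.9 and 83.5 RPM against 101 and 111 RPM (−0.48, SE 0.14). Itgb5, an integrin subunit, was at 60.8 and 43.0 RPM against 16.3 and 9.72 RPM (1.87, SE 0.26), while Itgb1 was at 135 and 142 RPM against 121 and 131 RPM and was not called. Without P7 replicate 2 only 4 were higher, without GSC WT replicate 2 only 2 were lower, and with ERCC scaling 5 were higher and 11 lower. Epcam was not called without P7 replicate 1 or GSC WT replicate 2.

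Interferon and antigen presentation genes were higher in GSC WT in 14 of 28 tested members and higher at P7 in 1, Ifit2. Gbp2, a guanylate-binding protein, was at 8.22 and 8.04 RPM at P7 and at 56.1 and 73.0 RPM in GSC WT (−3.11, SE 0.25, adjusted p = 3.18e-12). The class I genes H2-D1, at 7.89 and 8.35 RPM against 46.3 and 50.1 RPM (−2.69, SE 0.25), and H2-K1, at 17.4 and 21.9 RPM against 68.1 and 71.8 RPM (−1.95, SE 0.18), differed in the same direction. Gbp2 was near 1 RPM in fetal cells, with means of 0.776 and 1.10 RPM. Reads of class I genes can be shared between near-identical members. The member higher at P7 was not called without P7 replicate 1, P7 replicate 2 or GSC WT replicate 1, and with ERCC scaling 0 were higher and 17 lower.

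Homeobox genes of the Hoxb cluster were higher in GSC WT. Of 22 tested Hox genes 8 were higher in GSC WT, all of the Hoxb cluster, and 0 higher at P7 (edgeR; 8 and 0 at an unadjusted p under 0.05, and 8 and 0 by DESeq2). Hoxb7 was at 12.8 and 5.25 RPM at P7 and at 75.2 and 63.8 RPM in GSC WT (−3.08, SE 0.27, adjusted p = 1.75e-11), and Hoxb13 at 1.97 and 3.09 RPM against 26.1 and 25.9 RPM (−3.46, SE 0.38). Hoxb9 was at 0.987 and 0.618 RPM against 11.4 and 14.2 RPM. The Hoxa, Hoxc and Hoxd members tested were under 4 RPM in all 4 libraries. Of 12 tested Rhox genes, a homeobox cluster on the X chromosome, 2 were higher at P7 and 2 lower. The share called, 33.3%, was near the 31.0% of all tested genes. Without P7 replicate 1, P7 replicate 2 or GSC WT replicate 2 only 1 was higher, without GSC WT replicate 1 only 1 was lower, and with ERCC scaling 1 was higher and 6 lower. Rhox13, a germ cell homeobox gene, was at 32.9 and 40.5 RPM at P7 and at 133 and 129 RPM in GSC WT (−1.96, SE 0.16), Rhox7a was higher at P7, and Rhox10 was not called. Rhox7a was not called without P7 replicate 1 or 2 or GSC WT replicate 2.

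Targets of p53 gave 2 members higher at P7 and 5 higher in GSC WT of 25. In all 28% of them were called, under the 31.0% of all tested genes. Bax, which promotes cell death, was at 26.0 and 36.2 RPM at P7 and at 49.6 and 58.6 RPM in GSC WT (−0.92, SE 0.19), and Ccng1 at 60.2 and 55.6 RPM against 83.3 and 90.5 RPM. With any 1 library left out the counts were 1 and 4, and with ERCC scaling 1 and 11.

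Imprinted genes, expressed from one parental copy, gave 11 higher at P7 and 6 higher in GSC WT of 30. Meg3, maternally expressed, was at 26.0 and 32.1 RPM at P7 and at 3.54 and 2.24 RPM in GSC WT (3.20, SE 0.32, adjusted p = 3.6e-10), and Grb10 at 18.4 and 25.6 RPM against 3.54 and 4.98 RPM. H19, also maternally expressed, went the other way, at 12.8 and 10.8 RPM against 52.0 and 43.4 RPM (−2.14, SE 0.28, adjusted p = 1.21e-07), as did its neighbour Igf2, paternally expressed, at 23.7 and 32.1 RPM against 46.0 and 62.8 RPM. With ERCC scaling 7 were higher and 8 lower. Histone genes gave 3 higher at P7 and 8 higher in GSC WT of 19, and 1 and 5 without P7 replicate 1, 1 and 6 without GSC WT replicate 1 and 2 and 5 without GSC WT replicate 2. H3f3a was at 493 and 518 RPM at P7 and at 942 and 1177 RPM in GSC WT (−1.19, SE 0.10), and H3f3b, which encodes the same protein, went the other way at 1151 and 1212 RPM against 776 and 770 RPM. H2az1 was at 26.0 and 27.2 RPM at P7 and at 1185 and 1237 RPM in GSC WT, with fetal means of 865 RPM, and its difference cannot be told apart from that of the gene lists. H3f3b (−0.06) changed sign with ERCC scaling.

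The largest rises by fitted fold change were mostly genes with few or no reads in the other 10 libraries. Of the 15 largest, 11 had at least 20 RPM at P7 and under 1 RPM in each of the other 10 libraries. Pabpn1, for example, was at 278 and 282 RPM at P7 and at 0 in all the others, and Adnp at 213 and 207 RPM against 0, and these differences cannot be told apart from the counting. A further rule, chosen after the values were seen, kept rises with at least 5 RPM in 1 or more of the other 10 libraries. Under it Dpep3, a dipeptidase of germ cells, was at 34.5 and 29.7 RPM at P7 and at 0 in GSC WT, at least 41.0-fold higher (against 3 counts per library), and averaged 159 RPM at E16 and 169 RPM at E17. Topaz1, a germ cell gene, was at 72.0 and 59.4 RPM against 0.544 and 0.748 RPM, with fetal means of 55.1 and 94.6 RPM, and Pkd2l1, a channel, at 54.9 and 53.8 RPM against 0.544 and 0 RPM, with 60.4 and 109.9 RPM. Among abundant genes Afp, alpha-fetoprotein, was at 220 and 224 RPM against 57.2 and 46.4 RPM (1.98, SE 0.13), Esrp1, a splicing regulator, at 233 and 237 RPM against 75.7 and 58.1 RPM (1.69, SE 0.14), and Gas5, a noncoding RNA, at 219.7 and 239 RPM against 68.6 and 66.5 RPM.

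Among the largest falls, Atp6v0a2 was at 0 in both P7 libraries and at 30.5 and 26.2 RPM in GSC WT, at least 29.6-fold lower. It averaged 32.3 RPM at E16 and 46.4 RPM at E17, and its difference cannot be told apart from that of the gene lists. Mia2, Tnfrsf13b and Gbp2b had 1 or 2 counts in all at P7. In fetal cells Mia2 averaged 14.96 RPM at E16 and 40.9 RPM at E17 and Tnfrsf13b 55.0 and 41.2 RPM. Adnp, Pkd2l1, Gas5, Mia2, Tnfrsf13b, Nnat and Nupl1 overlap another annotated gene, and reads of such genes may be shared. Other genes named above also overlap another, among them Egr2, Cdk2, Dnmt3a, Dnmt3l, Dnd1, Ccnd1, Ctnnb1 and Actg1. Falls with reads at P7 included Spp1, osteopontin, at 3.95 and 5.26 RPM against 44.7 and 47.1 RPM (−3.43, SE 0.28, adjusted p = 3.99e-12), Nnat, at 3.29 and 7.42 RPM against 45.5 and 42.6 RPM, and Nupl1, a nucleoporin, at 27.0 and 18.6 RPM against 185 and 245 RPM (−3.37, SE 0.16). Snrpg, a core splicing protein, was at 498 and 582 RPM against 1268 and 1218 RPM (−1.33, SE 0.10), and Tomm7, of the mitochondrial import pore, at 131 and 178 RPM against 422 and 373 RPM. The most abundant transcripts were shared: Eef1a1, a translation factor, was first in both groups, at 9483 and 9438 RPM at P7 and 8759 and 8880 RPM in GSC WT, followed by Rplp1 and Rps2. Ptma, prothymosin, ranked among the 10 most abundant in GSC WT and not at P7, at 4263 and 4842 RPM against 2493 and 2752 RPM at P7 (−0.92, SE 0.09, adjusted p = 1.04e-09).

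**Figure D5:**
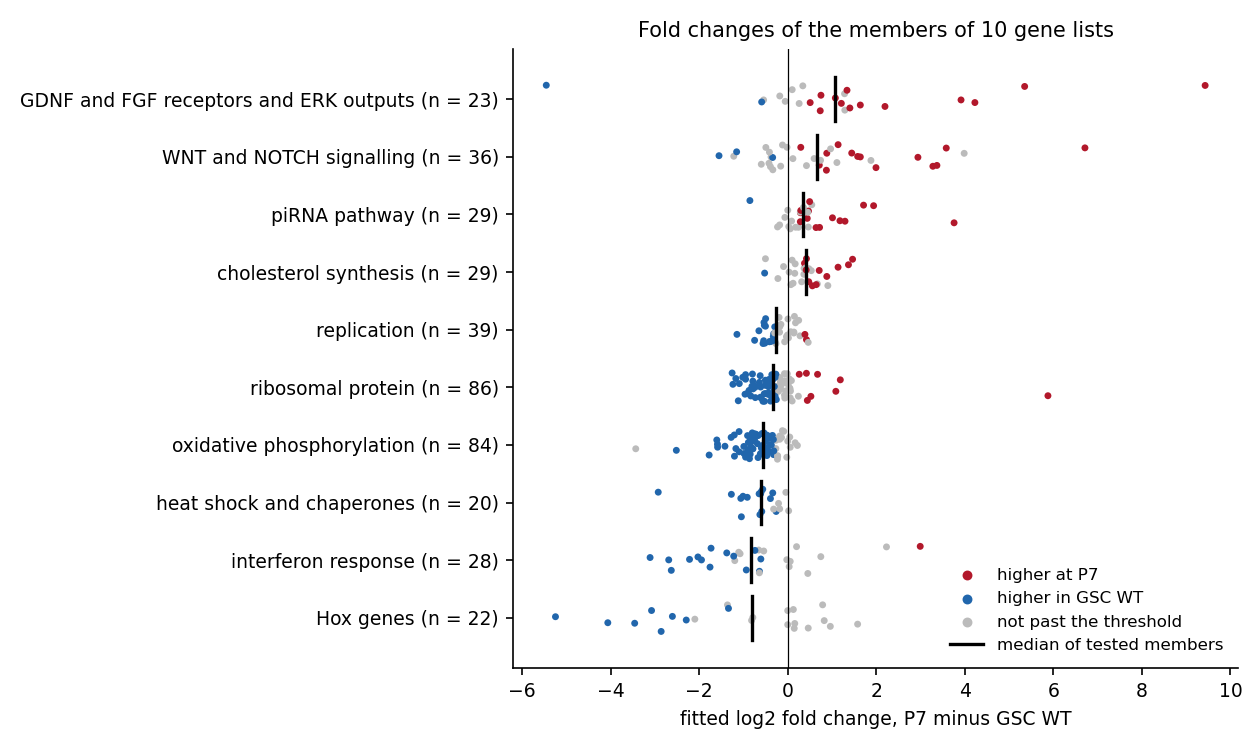
Fitted log2 fold changes, P7 minus GSC WT (x axis), of the tested members of 10 gene lists (y axis), 1 point a gene, red where higher at P7, blue where higher in GSC WT and grey where not past the threshold, with a black bar at each list's median. The 65 and 15 called members of oxidative phosphorylation and chaperones lie left of 0, with medians of −0.55 and −0.59, and the vertical spread of the points within a list has no meaning.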

How the data were processed

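Messenger RNA of 12 libraries was measured by SC3-seq, which reads the 3' ends of amplified cDNA. Per the labels' protocols 1 ng of total RNA was amplified. The authors deposited raw counts per gene with no normalization, and the submitters' processing notes name cutadapt 1.18, TopHat2 2.1.1, HTSeq 0.9.1, Salmon 1.4.0 and GRCm38.p6. What each tool did, and whether reads were counted by strand, is not given in the sources used here. Members and gene lists were chosen with earlier results of these data known.

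Files were joined by gene ID, and mitochondrial genes, which are blank at P7, spike-ins and transgenes were left out. All 12 libraries were fitted with edgeR 4.0.16 in R 4.3.3 (TMM, filterByExpr by group, quasi-likelihood test, Benjamini-Hochberg threshold 0.05), with DESeq2 1.42.0 as an alternative, after checks on simulated counts. Intervals on levels cover counting error only. GSC WT replicate numbers follow the titles, which the file names give the other way round. Each sample is the library its label names.

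Genes were named by rule: the 15 largest changes each way of at least 20 RPM and the 10 largest of at least 200 RPM, both among called genes whose P7 and GSC WT libraries do not overlap in RPM and leaving out ribosomal and predicted genes, the 10 most abundant in each group, up to 5 called members of each list per direction of at least 5 RPM, the most abundant members not called, and a fixed set of spermatogonial genes. Named outside the rule, after their values were seen, were Amh, Btg2, Cdc6, Crabp1, Csrnp1, Dppa4, Dusp1, Dusp6, Egr1, Etv4, Fgfr3, Fshr, Gins3, Hes1, Hsp90ab1, Ifit2, Maff, Mcm3, Mcm7, Mthfd2, Myc, Nanog, Pold1, Prdx1, Psat1, Rad21l, Rfc3, Sdha, Smc1a, Stag2, Sycp3, Tcl1, Tubb6, Utf1, Vim and Vldlr.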

Additional observations from a re-analysis of the deposited data

Results flagged for a closer look

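Rows for the polyadenylation signals of transgenes, which no comparison used, held counts above the 3 that a count of 0 allows. The BGH row had 88 and 153 counts in P7 replicates 1 and 2 and was blank in both GSC WT libraries. The EF1a row had 151 and 128 counts at P7 and 125 and 198 counts in GSC WT. The RBG row had 1022 and 1062 counts in GSC WT, 179 to 340 in the Stag3 KO libraries, and was blank at P7.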

How the results depend on the processing

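Of 15827 genes tested, 4905 passed the threshold. Leaving out genes that overlap another gave 2613 (1324 higher at P7, 1289 higher in GSC WT), and testing against a log2 fold change of 1 gave 878 (602 and 276), both stricter by construction. Called list members numbered 309 and 108 under these. ERCC scaling gave 909 and 4709, and 895 and 4868 with only the 4 libraries, and the cause was not tested. Leaving out single libraries gave 3200 to 3685 genes, 1592 to 1848 higher at P7 and 1608 to 1840 higher in GSC WT, with fewer samples. With RLE factors 4903 passed, with DESeq2 4264, with no filter 4867, and with an offset for transcript length, chosen after seeing the data, 4744. Replicate numbers did not pair the libraries (correlation of deviations −0.04), and with the replicate block 4876 genes passed. The 2-library groups limit the precision.

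With ERCC scaling the fold changes of these called genes turned negative: Actg1 −0.0903, Ccnd1 −0.0355 (−0.0362 with only the 4 libraries), Ddx4 −0.27, Gins4 −0.13, H3f3b −0.0639, Pole −0.19, Rpl10l −0.0237 (−0.0238), Uchl1 −0.0596 and Zbtb16 −0.0586 (−0.0587), and the other values were the same to the digits given. Among genes named in the text, those not called whose fold change turned negative and was then called were Rad21 (−0.54) and Smc3 (−0.53), and with only the 4 libraries Itgb1 (−0.54) and Stag1 (−0.54). With single libraries left out Vldlr ranged from −2.09 to 6.24.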
